A study of Rattus norvegicus with 6 samples.

Results

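Cathepsins are the proteases of the lysosome, and cystatins are their protein inhibitors. The 10 genes described here are 8 cathepsins (Ctsa, Ctsb, Ctsc, Ctsd, Ctsh, Ctsk, Ctss and Ctsz) and 2 cystatins (Cst3 and Cst7). They were chosen by name as members of these families, with earlier results of these data known, from 17679 genes that could be named on the arrays. They were measured in the hippocampus of male Wistar rats (spelled Wister in the labels) after BCCAo, a permanent occlusion of both common carotid arteries that leaves the brain with a lasting shortage of blood flow. The groups were a control (12 weeks of age) and rats at day 21 (13 weeks), day 35 (14 weeks), day 45 (15 weeks), day 55 (16 weeks) and day 70 (17 weeks) after occlusion, with ages as the labels give them, which do not keep step with the days between the time points. Each group was 1 array of pooled RNA. The sources used here do not say how many animals made up a pool, or whether control rats were sham-operated. Every difference below is therefore between 2 arrays, with no replicates, no spread between animals and no p-value. In such bulk tissue, fewer cells of a type and less RNA per cell cannot be told apart.

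Most cathepsins are cysteine proteases (B, C, H, K, S and Z), while cathepsin D is an aspartic protease and cathepsin A a serine carboxypeptidase. They are made as inactive precursors, sorted to lysosomes and activated there, where they break down proteins taken up or recycled by the cell. In the brain they are present in neurons and glia, and microglia, the resident phagocytes, are known for high levels of several of them. Cystatins block the cysteine cathepsins. Cystatin C, the product of Cst3, is secreted and abundant in cerebrospinal fluid, whereas cystatin F, the product of Cst7, is made by immune cells and acts inside their lysosomes.

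The regions just upstream of the genes are shown first, because the 4 genes that passed 2-fold at day 21 differ in the motifs they hold there. RefSeq promoters of build GRCr8 were at hand for 9 of the 10 genes, and the 250 bases before the start of each gene were searched on both strands for 4 motifs. These were CACGTG, the E-box at the centre of the element bound by the lysosomal regulator TFEB, the longer CLEAR element, which contains CACGTG, the PU.1 motif GAGGAAGT of myeloid genes, and the AP-1 motif TGANTCA. The sequences of the 4 genes are given 5′ to 3′ on the strand of the gene, with matches in capitals. They lie at chr1:151440799-151441048 (Ctsc, plus strand), chr1:206968822-206969071 (Ctsd, minus strand), chr2:185775146-185775395 (Ctss, plus strand) and chr3:183653848-183654097 (Ctsz, minus strand).
Ctsc: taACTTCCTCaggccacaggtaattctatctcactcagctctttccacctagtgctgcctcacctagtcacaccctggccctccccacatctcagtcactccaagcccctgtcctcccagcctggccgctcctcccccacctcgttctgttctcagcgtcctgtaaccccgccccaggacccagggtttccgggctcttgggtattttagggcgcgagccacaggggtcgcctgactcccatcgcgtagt
Ctsd: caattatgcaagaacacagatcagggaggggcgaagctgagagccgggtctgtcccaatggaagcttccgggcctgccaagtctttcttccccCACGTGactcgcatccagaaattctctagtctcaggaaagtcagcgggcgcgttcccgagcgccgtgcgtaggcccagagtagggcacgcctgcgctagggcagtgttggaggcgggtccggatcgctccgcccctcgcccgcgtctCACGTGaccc
Ctss: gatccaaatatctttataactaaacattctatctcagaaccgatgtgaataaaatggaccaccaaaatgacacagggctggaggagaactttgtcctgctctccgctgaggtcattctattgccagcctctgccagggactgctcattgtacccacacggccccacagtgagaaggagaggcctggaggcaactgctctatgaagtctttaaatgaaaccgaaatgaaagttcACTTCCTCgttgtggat
Ctsz: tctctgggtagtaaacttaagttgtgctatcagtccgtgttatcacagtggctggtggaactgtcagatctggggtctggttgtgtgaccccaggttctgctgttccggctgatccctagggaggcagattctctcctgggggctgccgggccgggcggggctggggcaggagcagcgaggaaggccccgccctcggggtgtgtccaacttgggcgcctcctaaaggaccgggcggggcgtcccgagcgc
The Ctsd sequence held CACGTG at 2 places, starting 157 and 10 bases before the gene. The Ctsc and Ctss sequences each held the PU.1 motif once, read on the opposite strand, starting 248 bases before Ctsc and 17 bases before Ctss. Ctsz held none of the 4 motifs, nor did any of the other 5 members with a sequence. Over 33469 rat promoters of the same length, CACGTG was found in 5.59%, the CLEAR element in 0.203%, GAGGAAGT in 2.04% and TGANTCA in 6.34%. A match is a description of letters, and no match says nothing about the factor.

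Levels are log2 intensities relative to the 75th percentile of each array, so 0 is the signal of a spot brighter than most. Each member was read by 1 probe in 1 spot, and all 10 stood well above background on all 6 arrays, as did 12534 genes in all. The probe of Ctsb lies at chr15:42423613-42423672, that of Ctsd at chr1:202619669-202619727 and that of Cst7 at chr3:141199202-141199261 in build rn4, the build of the array files. The Ctsh probe spans 2307 bases there (chr8:94986941-94989247), so it crosses an intron. Ctsk and Ctss are neighbours on chromosome 2, with probe starts 60.9 kilobases apart. Probes printed 10 times gave a technical SD of 0.062 to 0.119 log2 units for differences at the members' brightness. That SD covers spots of 1 array and not animals or pools. Control, day 21 and day 35 were hybridised on one slide and days 45, 55 and 70 on another, so slide and late time cannot be told apart.

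At day 21 all 8 cathepsin genes were above the control, and Ctsz, Ctsc, Ctsd and Ctss were at least 2-fold higher. Among all 14157 genes compared, 3.57% were called higher by that rule and 1.85% lower, while the 9 measured members gave 4 higher and 0 lower. Their median difference was 0.84 log2 units (0.99 for the 8 cathepsins), and the median of all genes was -0.066. Day 21 was the highest of the 6 arrays for 8 of the 9 measured members (88.9%), as against 24.4% of the 12534 genes. Each cathepsin difference at day 21, the smallest being 0.46, was larger than its technical SD. Cst3 could not be compared, because its spot was saturated on every array, where it read 5.31 to 5.60. Cst7 differed from the control by -0.12 at day 21, with a technical SD of 0.093.

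**Figure D1:**
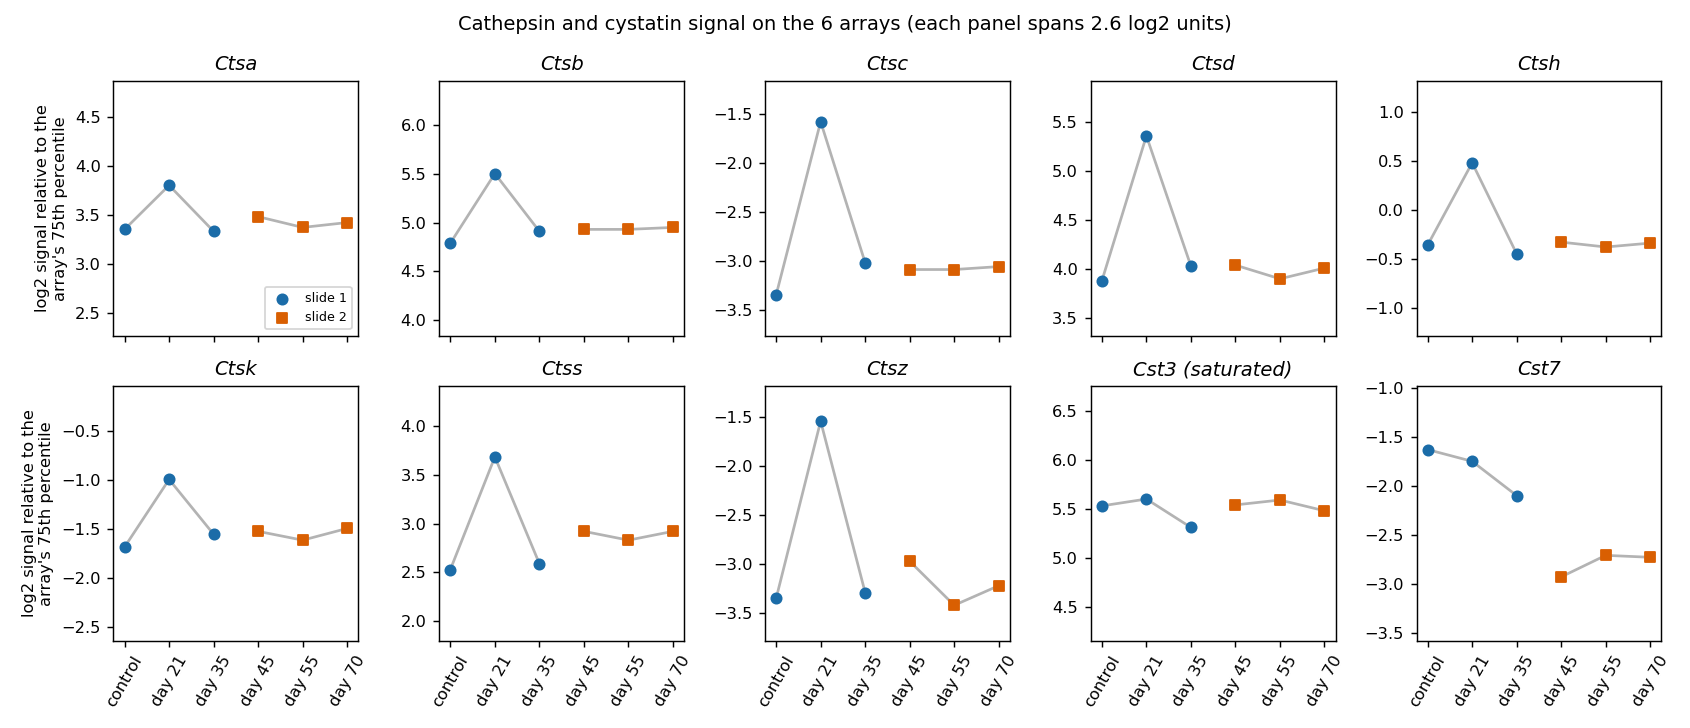
Log2 level relative to the 75th percentile of each array (vertical axis) of the 10 genes on the control array and at 5 days after occlusion (horizontal axis), 1 array of pooled RNA per point. The 8 cathepsins peaked at day 21, the saturated Cst3 stayed near its ceiling, and Cst7 stood lowest at days 45, 55 and 70.

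Ctsz encodes cathepsin Z, also called X, a carboxypeptidase that removes single residues from the end of proteins. Its level was -3.35 on the control array, -1.54 at day 21, -3.29 at day 35, -2.97 at day 45, -3.42 at day 55 and -3.22 at day 70. The day 21 array stood clear of the other 5, which lay between -3.42 and -2.97. Day 45, on the other slide from the control, stood 0.37 log2 units above it (technical SD 0.117), more than 97.7% of genes. The day 21 difference from control was 1.81 log2 units or 3.5-fold, more than 98.8% of genes.

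Ctsc encodes cathepsin C, or dipeptidyl peptidase I, which activates serine proteases of immune cells by trimming them. It read -3.35 on the control array, -1.58 at day 21, -3.02 at day 35, -3.09 at day 45, -3.09 at day 55 and -3.06 at day 70. The control array was the lowest of the 6 and the later days stood just above it. The day 21 fold was 3.41, again above 98.8% of genes, and the later differences of 0.26 to 0.33 log2 units were each above 92.2% of genes or more. Their technical SD was 0.111 to 0.119. They were 0.12 to 0.16 with normexp background correction and 0.4 to 0.47 with quantile normalization. Those at days 45, 55 and 70 compare arrays on different slides.

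Ctsd encodes cathepsin D, the main aspartic protease of lysosomes. Its level was 3.88 on the control array, 5.36 at day 21, 4.03 at day 35, 4.04 at day 45, 3.90 at day 55 and 4.01 at day 70. The day 21 array was high alone, 2.8-fold above control. Before scaling between arrays, the Ctsd signal was 51111 intensity units at day 21, against 19285 on the control array.

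Ctss encodes cathepsin S, which stays active at neutral pH and trims the invariant chain of MHC class II molecules in antigen-presenting cells. Its levels were 2.53 on the control array, 3.68 at day 21, 2.59 at day 35, 2.92 at day 45, 2.83 at day 55 and 2.92 at day 70. The difference at day 21 was 1.15 log2 units (2.21-fold), and at days 45, 55 and 70 it was 0.39, 0.31 and 0.39. Those late differences exceeded 97.8, 94.0 and 97.4% of genes, though they compare arrays on different slides. On the slide that held the control, day 35 stood 0.06 above it.

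The remaining 4 cathepsins stood above the control at day 21 by less than 2-fold. Ctsh, an aminopeptidase, was 1.79-fold higher, with a level of 0.48 at day 21, against -0.36 on the control array. Ctsb, an abundant endopeptidase and carboxydipeptidase, was 1.64-fold higher, at 5.50 on the day 21 array, against 4.79 on the control array. At day 21, 7.6% of the pixels of the Ctsb spot were saturated, and 0.0% on the other arrays, so its brightest value may be held down. Ctsk, the collagen-degrading cathepsin best known from osteoclasts, was 1.62-fold higher, at -0.99 on the day 21 array, against -1.68 on the control array. Ctsa, which also protects the lysosomal enzymes encoded by Glb1 and Neu1 in a complex, differed least, 1.37-fold, at 3.80 on the day 21 array, against 3.35 on the control array. On the other 5 arrays Ctsb lay between 4.79 and 4.95, Ctsa between 3.33 and 3.48, Ctsh between -0.45 and -0.33 and Ctsk between -1.68 and -1.49, so none overlapped its day 21 value. The day 21 differences exceeded 95.2% of genes for Ctsh, 94.0% for Ctsb, 93.9% for Ctsk and 89.9% for Ctsa. The 8 cathepsins stood above the highest of the other 5 arrays at day 21 by 0.32 (Ctsa) to 1.44 (Ctsc) log2 units.

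**Figure D2:**
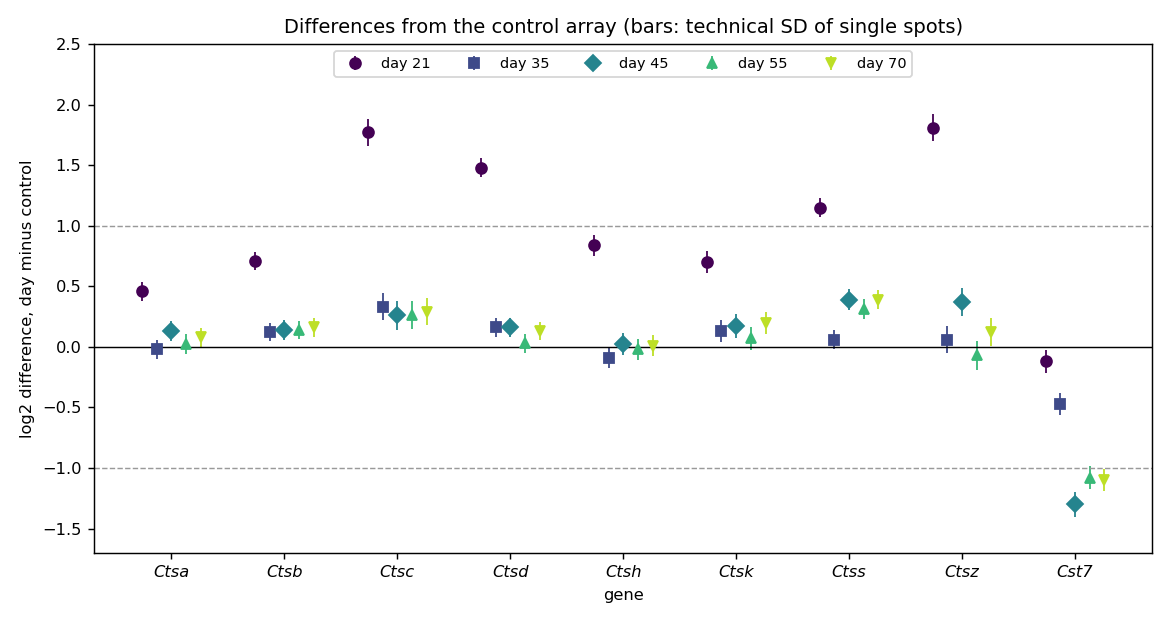
Log2 difference from the control array (vertical axis) for the 9 measured genes at each day, with the technical SD of the difference as error bars and 2-fold marked. Ctsz, Ctsc, Ctsd and Ctss passed 2-fold higher at day 21, and Cst7 passed 2-fold lower at days 45, 55 and 70.

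**Figure D3:**
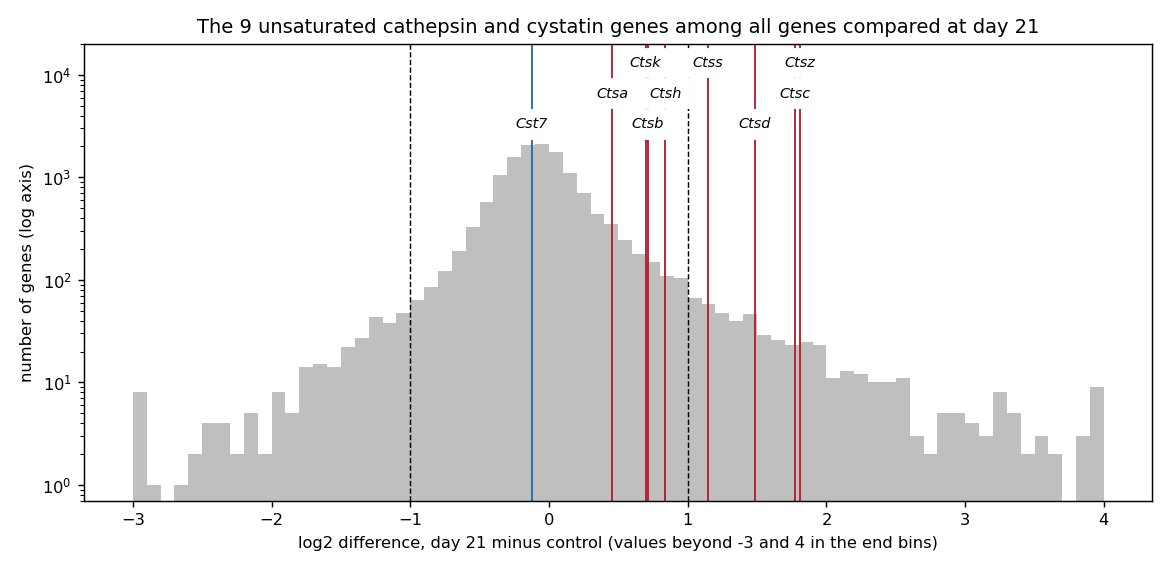
Distribution of the log2 difference of day 21 from control over 14157 genes, with the 9 measured genes marked on the horizontal axis. Ctsz and Ctsc lay above 98.8% of genes, and Cst7 above 41.2%.

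By day 35 the cathepsins were near the control. Of the 9 measured members 0 were called in either direction, against 0.452% of genes higher and 1.11% lower. Above 0 were 6 of the 9, with a median of 0.06, against 41.6% of all genes, with a median of -0.037. Set against each other, day 21 stood above day 35 by at least 2-fold for Ctsz (1.75 log2 units), Ctsc (1.44), Ctsd (1.33) and Ctss (1.08). Over 14094 genes 4.42% were that much higher at day 21 than at day 35, against 1.02% lower. The comparisons share the control, day 21 and day 35 arrays. The share of the day 21 excess (scaled signal above control, on the linear scale) still present at day 35 was highest for Ctsk (15.5%) and Ctsb (13.1%), was 10.7% for Ctsc, 6.4% for Ctsd and 3.6% for Ctss, and was below 0 for Ctsa and Ctsh. At days 45, 55 and 70 the highest such shares were 25.8% (Ctss, day 70), 25.7% (Ctsa, day 45) and 25.3% (Ctss, day 45). Some of these shares divide a small difference by a small day 21 excess. The day 35 differences of Ctsk and Ctsb were 0.13 and 0.12 log2 units (technical SD 0.09 and 0.075), against 0.33 for Ctsc. For Ctsa at day 45 the difference was 0.13 (technical SD 0.085). All 8 cathepsins were above the control at day 45 (median 0.16 log2 units) and at day 70 (0.14), and 6 at day 55 (0.05). Over all genes 37.9, 42.2 and 41.2% were above 0 at days 45, 70 and 55. These late arrays lie on the other slide from the control.

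At days 45, 55 and 70 the member called was Cst7, the immune-cell cystatin, at least 2-fold lower. It read -1.63 on the control array, -1.75 at day 21, -2.10 at day 35, -2.93 at day 45, -2.71 at day 55 and -2.73 at day 70. The 3 arrays of the second slide were the lowest and the 3 of the first slide did not overlap them. Its differences from control were -0.12, -0.47, -1.30, -1.08 and -1.10 log2 units in order of day. Its call counted as 1 of 9 at each of the 3 late days, where 5.71, 4.88 and 6.74% of all genes were at least 2-fold lower, and 0.579, 0.641 and 0.659% were higher. With quantile normalization those lower shares were 2.18, 2.97 and 2.93%. Of 13891 genes compared at all 5 days, 471 (3.39%) were at least 2-fold lower on all 3 late arrays, and 279 of these not at day 21 or day 35. In the middle of 3 equal groups by brightness, which holds Cst7, there were 33 of 4630 (0.713%), 24 of them not lower earlier. The Cst7 call did not survive every choice. With normexp background correction the differences at days 55 and 70 were -0.90 and -0.92, and with the authors' deposited table they were -0.97 and -0.93. Against the other arrays of its own slide Cst7 stood at -0.21 at day 45, 0.12 at day 55 and 0.09 at day 70. That comparison sets late arrays against each other and leaves out the control, so it cannot decide whether the call holds. The second slide and time cannot be told apart here.

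Likeness between members was read from profiles centred on each gene's mean over the 6 arrays. Ctsb and Ctsk were closest, with a root mean square distance of 0.037 log2 units, and Ctsc and Ctsd lay 0.092 apart. Cst7 was 0.461 to 0.654 from every other measured member. Among the cathepsins Ctsa and Ctsz were farthest apart, at 0.494, which lies within that range. Among all genes well above background on all arrays, the nearest to Ctsz were Rnaset2, an acid ribonuclease of the lysosome (0.066), Slc2a5, a fructose transporter (0.079), and Tmem156 (0.085). The nearest to Ctsc were C1r (0.056), Tnfaip8l2 (0.066) and Tnfaip2 (0.085), and to Ctsd Dnase2, a lysosomal nuclease (0.057), Serpinb1a (0.058) and Fgd2 (0.058).

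Other genes of the system were taken from lists. Of 13 further cathepsins 12 were on the array, 6 were never well above background (Ctsg, Ctsw, Ctsj, Ctsm, Ctsq and Cts7) and 3 were well above it on all 6 arrays. Ctse, an aspartic protease, was 1.90 log2 units above control at day 21, the 1 of 6 compared that was called. Ctsl was 0.66 above, below 2-fold, and Ctsf -0.14. The median of the 6 was -0.08. Ctsr, which belongs to a family of close copies so that its probe may read more than 1 gene, was the 1 gene of the list called at each late day, at -1.05, -1.41 and -1.38 at days 45, 55 and 70, all bounds. It was singled out after its values were seen, as were Serpina3n, Ahsg and Gnptab in the lists that follow. Of 19 further cystatins and inhibitors 17 were on the array, and 1 of 8 compared at day 21 was higher, Serpinb1a at 1.49 (another probe of the gene read 1.58), with a list median of 0.01. Cst6 stood at -0.18, Spock3 at 0.06 and Spock1 at -0.04. Serpina3n, an inhibitor of serine proteases, was lower than the control at days 55 and 70 (-1.33, and -1.82 as a bound), and Ahsg at days 45 (-1.30, a bound) and 70 (-1.21). Of 22 genes for delivery, activation and partners 19 were compared at day 21 and 0 passed 2-fold, 13 being above 0 with a median of 0.18. The 1 call of that list against the control was Gnptab at day 70, at 1.22, a bound. Cd63 stood at 0.89, Lgmn, the protease that activates several cathepsins, at 0.79 and Lamp2 at 0.78. Glb1 stood at 0.67 on its brightest probe and 0.07 on its other, so its value rests on the probe.

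Markers of some cell types were higher at day 21 and those of others were not. The summed signal of 12 microglial markers, all well above background on every array, was 18.11 on the control array, 52.55 at day 21, 16.70 at day 35, 17.93 at day 45, 18.74 at day 55 and 19.82 at day 70, in units of the array's 75th percentile. At day 21, 9 of the 12 were at least 2-fold higher, but unevenly. Cd68 (3.93 log2 units), Fcgr2b (2.92) and Trem2 (2.52) rose most, and Cx3cr1 (0.07), Tmem119 (0.24) and Csf1r (0.44) were not called. Meningeal markers summed to 9.67 at day 21, against 4.17 on the control array, and 4 of 8 were at least 2-fold higher. Choroid plexus markers summed to 3.16, 51.66, 26.44, 3.02, 3.10 and 44.03 in order of time, and most of each sum was a single gene, Ttr. Ttr was at least 4.13 log2 units above control at day 21 (saturated), 3.17 at day 35 and 3.91 at day 70. At day 21, 6 of the 8 choroid plexus markers were at least 2-fold higher. At day 35, 4 of the 8 were at least 2-fold higher, and at day 70, 5 were higher and 1 lower. Aqp1 (0.24, -0.04 and -0.37 at days 21, 35 and 70) and Clic6 (0.43, 0.2 and -1.21) were not 2-fold higher on those days. Astrocyte markers summed to 97.29 at day 21, against 78.99 on the control array, with 1 of 8 at least 2-fold higher. Neuron markers summed to 35.75 at day 21, against 41.37 on the control array, with 0 of 8 called, and all 8 were well above background on every array. The lists for pyramidal and granule cells, endothelium and red blood cells also had 0 called at day 21, with medians of -0.31, -0.23 and 0.2 log2 units. Red blood cell markers were lower at days 45, 55 and 70, with medians of -0.93, -0.33 and -0.75. Blood leukocyte markers summed to 0.23 at day 21, against 0.17 on the control array. Of 5 compared, 2 were at least 2-fold higher at day 21, Mpo at 1.46 log2 units and S100a8 at 1.28 (a bound), and Cd3g and Cd79b were never well above background. The part of these cells in the cathepsin values was not tested.

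**Figure D4:**
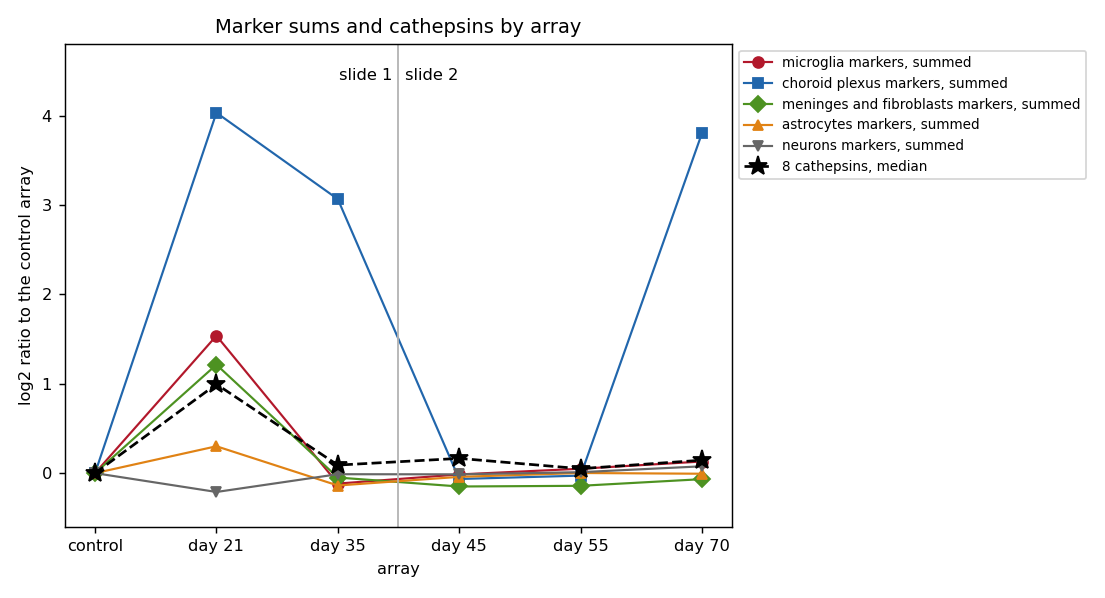
Log2 ratio to the control array (vertical axis) of summed marker signals and of the median of the 8 cathepsins, on each of the 6 arrays (horizontal axis), with the slides marked. The sum of microglial markers peaked at day 21, and the choroid plexus sum, mostly Ttr, was high at days 21, 35 and 70.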

How the data were processed

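Hippocampal RNA was hybridised to 6 one-colour Agilent arrays (design 028282, 1 per group). Per the labels' protocols the RNA was pooled. The deposited scanner files hold, per the file headers, spot intensity from Feature Extraction 10.7.3.1, a processed signal with local background subtracted and no scaling between arrays. The labels name Cy5 while the files hold the green channel. The authors also deposited a table of intensity values, of unstated making, used as an alternative.

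Outlier spots (346 to 470 of 42877 per array) were left out. The log2 of the processed signal minus the array's 75th percentile was taken, and the brightest probe stands for a gene. Probes were named through RefSeq GRCr8 (17679 genes, 9273 probes unnamed). A difference of 2-fold counts as called. A difference is a bound where 1 array had no signal well above background, or where 1 array alone was saturated. Python 3.11.15, R 4.3.3 and limma 3.58.1 were used. The calling rule was tried on simulated data with spot noise and planted differences past 2-fold. That trial held no variation between animals, pools or slides, so it cannot show how the rule fares under such variation. Each array has 74.5 to 80.2% of spots well above background, and 1 array per group limits the precision.

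The members, lists and tests were chosen with earlier results of these data known. From each list the up to 4 widest-ranging genes well above background on all arrays are named, plus any past 2-fold at day 21 on both arrays. Like genes are the 3 nearest to each of the 3 widest-ranging members. Background correction, normalization, filter, threshold and baseline were varied.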

Additional observations from a re-analysis of the deposited data

How the results depend on the processing

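The 4 cathepsins called at day 21 kept their direction under all 12 alternatives, with ranges in log2 units of 1.38 to 1.83 for Ctsc, 1.39 to 1.5 for Ctsd, 0.92 to 1.17 for Ctss and 1.43 to 1.87 for Ctsz. The count of members called at day 21 was 7 at a 1.5-fold threshold and 3 against the mean of the other 5 arrays, where Ctss stood at 0.92. The single call at day 45 became 0 with the deposited table, the other 5 arrays or the same slide as baseline. The call at day 55 became 0 with normexp, median scaling, the deposited table and both baselines, and at day 70 with normexp, the deposited table and both baselines. Against the other late arrays of its own slide Cst7 stood at 0.12 (day 55) and 0.09 (day 70). For the late days that baseline leaves out the control, so it cannot decide whether the difference from control holds. The smaller Cst7 differences at days 21 and 35 changed sign, to 0.67 and 0.25 against the mean of the other 5 arrays, and at day 21 to 0.11 against its own slide. Over the alternatives Ctsc ran from -0.55 to 0.43 at day 35 and from -0.27 to 0.47 at day 45, and Ctss from -0.09 to 0.39 at day 55. These later differences, all under 2-fold, each kept their sign in 10 of the 12 alternatives. The negative values came with both changed baselines, which are not differences from the control array alone. Scaling to the median moved the median of all genes at day 45 by 0.119. Over all genes 767 were called at day 21, and 270 with normexp, 491 with the deposited table, 438 among genes well above background on all arrays, 1535 without a filter and 1848 at 1.5-fold. Over all alternatives the count of all genes ran from 52 to 804 at day 35 (221 as reported), 122 to 2173 at day 45 (880), 106 to 1805 at day 55 (785) and 168 to 2181 at day 70 (1044). Quantile normalization gave 118 higher and 134 lower at day 35, against 64 and 157 as reported, 202 and 305 at day 45 (81 and 799), 191 and 422 at day 55 (91 and 694) and 233 and 414 at day 70 (93 and 951). No paired analysis was possible because each group has 1 array. The cause was not tested.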

Other observations

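Among probes described as cathepsins or cystatins outside the members and lists, 19 were found, of which 17 were never well above background and 0 were well above it on all 6 arrays.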
